A study of Mus musculus with 3 samples.

Results

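The genes described here encode proteins that dock, prime and fuse synaptic vesicles at the presynaptic membrane, or that build the active zone where this happens. They were chosen by gene symbol alone: numbered members of the Syt, Stx, Stxbp, Vamp, Cplx, Rims and Snap families, the Unc13, liprin-alpha (Ppfia), synapsin (Syn) and Sv2 genes, and Bsn, Pclo, Erc1, Erc2, Syp and Nsf, with Stxbp6 left out. This gave 79 of the 32531 gene rows, and 78 of the 79 matched a gene in GENCODE vM21. The symbol rule also took in Snap91, which encodes the clathrin adaptor AP180 and is no SNARE, and Stxbp3b, which the annotation lists as a pseudogene.

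RNA was purified from tagged ribosomes of the dentate gyrus of adult, untreated mice on the C57BL/6J strain, of the line Penk-EGFP/Rpl10a (NIDA186). In this method, translating ribosome affinity purification (TRAP), the ribosomal protein Rpl10a carries a green fluorescent tag in cells chosen by a promoter, here that of the proenkephalin gene Penk, and the tagged ribosomes are captured with an antibody. The 3 libraries were all such captured samples and formed 1 group, with replicate numbers 1, 2 and 3. No input library was used here, so no enrichment over tissue could be computed, and the comparisons below are between genes within a library and between libraries of the group.

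A vesicle fuses when the vesicle SNARE protein (a VAMP) zips together with the membrane SNAREs syntaxin and SNAP-25, guided by Munc18 (the Stxbp genes) and by Munc13. Synaptotagmins carry the calcium signal, complexins hold and then aid the assembled complex, and NSF takes the used complex apart. RIM, Munc13, ELKS, liprin-alpha, Bassoon and Piccolo form the active zone, and granule cells of the dentate gyrus use this machinery at their mossy fibre terminals in area CA3.

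The promoters of 3 of these genes are shown because they hold the core of RE1, the element bound in many neuronal genes by the repressor REST. Promoter sequence came from RefSeq (GRCm38.p6), covered 250 bases before and 50 bases after each start, and was found for 61 of the 79 genes. Capitals mark the RE1 core, TTCAGCACC or its reverse complement GGTGCTGAA, and in Syn1 also the cyclic AMP response element TGACGTCA, and the marked motifs do not overlap. All 3 lie on the minus strand: Syn1 at chrX:20920869-20921168, Unc13a at chr8:71671708-71672007 and Ppfia3 at chr7:45366970-45367269.
Syn1: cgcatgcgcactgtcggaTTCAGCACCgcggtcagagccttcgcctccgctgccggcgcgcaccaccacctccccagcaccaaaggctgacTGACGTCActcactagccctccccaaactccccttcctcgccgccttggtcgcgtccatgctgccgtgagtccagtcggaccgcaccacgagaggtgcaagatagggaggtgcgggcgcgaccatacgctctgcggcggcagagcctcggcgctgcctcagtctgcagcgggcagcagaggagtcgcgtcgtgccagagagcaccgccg
Unc13a: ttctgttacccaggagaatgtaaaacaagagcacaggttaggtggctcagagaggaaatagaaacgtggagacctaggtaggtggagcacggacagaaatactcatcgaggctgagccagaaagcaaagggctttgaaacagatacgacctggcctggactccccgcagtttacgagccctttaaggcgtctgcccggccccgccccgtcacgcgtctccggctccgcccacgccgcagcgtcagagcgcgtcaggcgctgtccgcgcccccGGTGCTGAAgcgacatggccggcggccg
Ppfia3: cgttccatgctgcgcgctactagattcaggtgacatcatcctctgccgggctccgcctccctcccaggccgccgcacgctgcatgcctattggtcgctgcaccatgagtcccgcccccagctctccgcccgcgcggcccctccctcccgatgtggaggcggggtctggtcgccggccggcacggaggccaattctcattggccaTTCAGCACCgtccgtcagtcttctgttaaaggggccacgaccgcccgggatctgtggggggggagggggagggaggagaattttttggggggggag
In Syn1 the RE1 core began 232 bases before the start and the cyclic AMP element 159 bases before it. The RE1 core of Ppfia3 began 46 bases before the start, and that of Unc13a lay on the other strand, 23 bases after it. On both strands, the RE1 core was in 3.90% of the 77 promoters of the vesicle fusion genes and in 0.371% of all 32851 promoters. The cyclic AMP element was in 2.60% of these genes' promoters and in 1.79% of all promoters. The GC box GGGCGG was in 68.8% of these genes' promoters and in 35.7% of all promoters. These motifs were kept after several others had been looked at, and a match describes letters, not binding.

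The libraries differed in depth, with 5348761, 19195559 and 11059982 counts on genes in replicates 1, 2 and 3. The labels do not say whether each library stands for a different animal; the spread over libraries, and each p-value that rests on it, may therefore be technical. The vesicle fusion genes held 2.52, 3.30 and 2.67% of the counts on genes. At least 10 counts were found for 59, 68 and 66 of the 79 genes in replicates 1, 2 and 3, while 14, 10 and 11 genes were at 0. Of all 32531 gene rows, 8795, 14252 and 12019 had at least 10 counts. In all libraries 7 genes were at 0: Cplx4, Rims4, Stx11, Stxbp3b, Unc13d, Syt8 and Vamp7. Vamp7 was also the symbol without a match in GENCODE vM21, and whether its 0 reflects the annotation or the mapping was not tested. A count of 0 allows up to 3 counts, which is 0.707, 0.131 and 0.257 CPM (the counts of a gene scaled to a fixed total per library, with TMM factors) in replicates 1, 2 and 3; this limit covers counting error only. Markers of other cells were present beside those of neurons: the 8 neuron markers summed to 8575 to 14818 CPM, and Snap25 and Syt1 are among them. The 9 granule cell markers summed to 1032 to 1992 CPM and the 8 astrocyte markers to 1626 to 3738 CPM. Of the astrocyte sum, Slc1a2 alone gave 2874, 1228 and 2796 CPM in replicates 1, 2 and 3. The 7 oligodendrocyte markers summed to 771 to 1292 CPM, and the 2 markers of their precursors to 4.72 to 38.9 CPM. The 6 endothelial and mural markers summed to 320 to 961 CPM, and the 8 interneuron markers to 297 to 475 CPM. The 7 microglia markers summed to 6.84 to 38.9 CPM, with 5, 1 and 2 of them at 0 in replicates 1, 2 and 3. Penk itself had 13.7, 66.0 and 12.1 CPM. The part of other cells in the levels below was not tested, and in such bulk samples fewer cells of a type and less RNA per cell cannot be told apart.

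Levels of different genes were compared as CPM per kb of exon, and tested as the log2 level relative to the library's median gene, which lies at 0. Where a log2 level is given with ±, the first value is the fitted level. The SD is that of the log2 levels of the 3 libraries, whose mean can differ from the fit. That mean was 1.10 for Unc13a, against a fit of 1.51, and 2.20 for Syt7, against 2.69. A gene was called above or below when its fitted level differed from the median gene by more than 1 on the log2 scale at an adjusted p under 0.05 (edgeR quasi-likelihood fit over 7924 genes, Benjamini-Hochberg adjustment). Of the 60 vesicle fusion genes with enough counts to test, 25 were above, which is 41.7%, against 13.7% of all tested genes. By the same edgeR test, 0 of the 60 were below, against 2.99% of all tested genes; 0 were below at an unadjusted p under 0.05 too, and 0 by limma. The median log2 level of the 60 genes was 1.62, against 0.23 for all tested genes. The other 19 genes did not pass the filter on low counts, which asks in effect for counts in all 3 libraries, so the 60 are not a picture of all 79. Of the 60 tested vesicle fusion genes, 37 were above the median gene in every library, 14 had libraries on both sides and 9 were below it in every library. The same split over all tested genes is not given here, so nothing particular to these genes is read from it. Per kb, 5 of the genes ranked among the 100 highest of the 15081 genes with counts and a length.

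**Figure D1:**
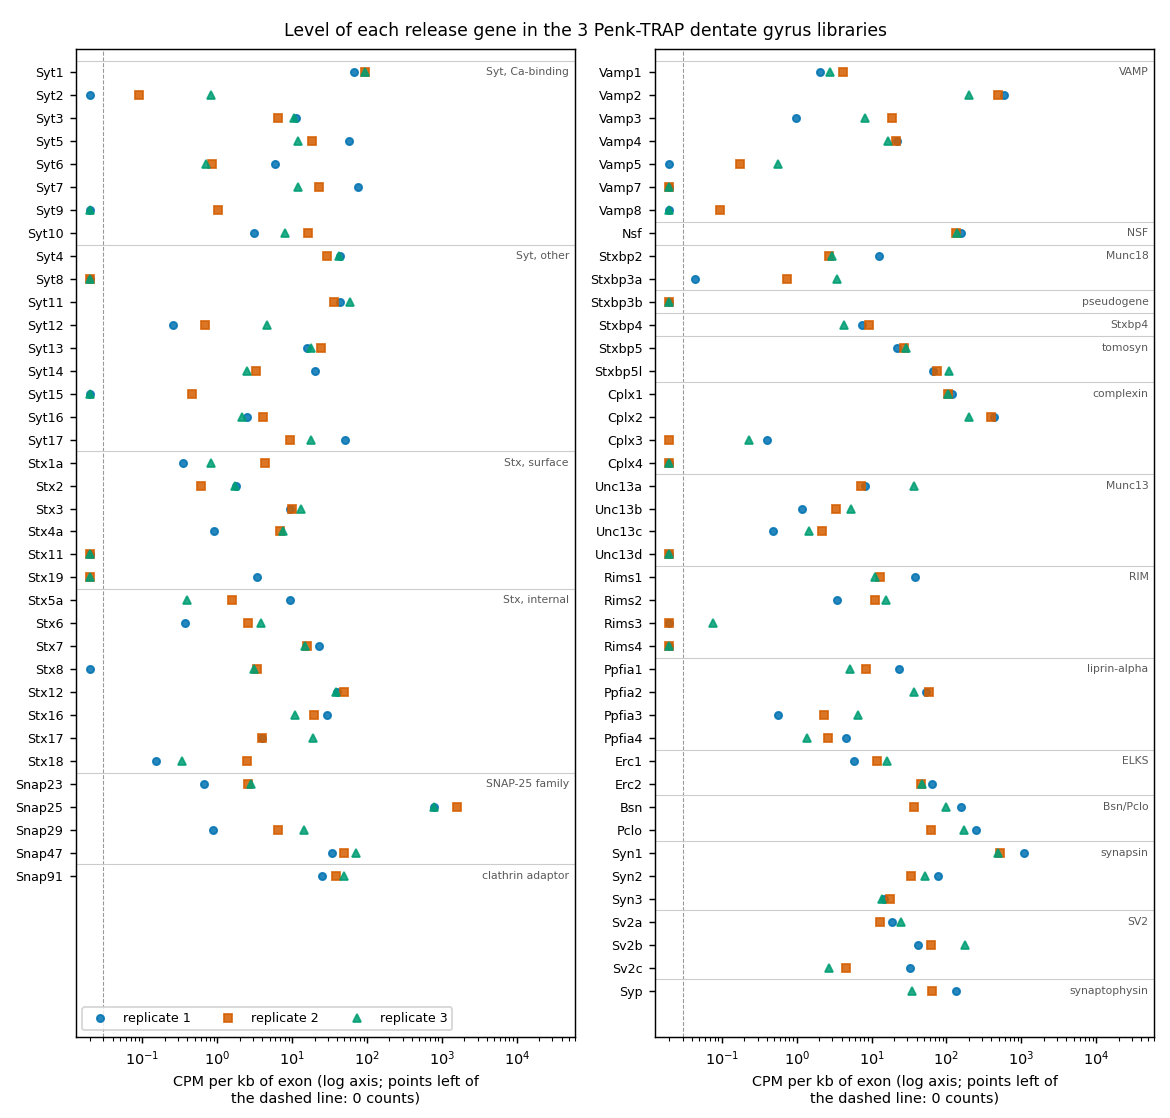
CPM per kb of exon (log axis) of 77 of the 79 vesicle fusion and active zone genes in replicates 1, 2 and 3, grouped by role; points left of the dashed line stand for 0 counts. Snap25 and Syn1 lie farthest right, at 482 CPM per kb or more in every library, while Snap23, of the same family as Snap25, lies under 5 CPM per kb in every library.

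**Figure D2:**
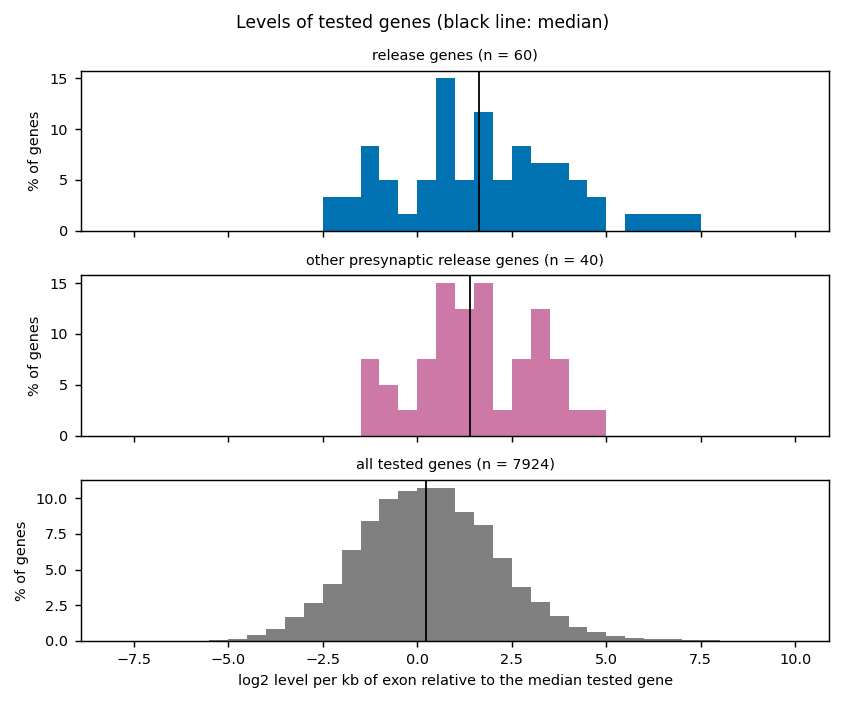
Share of genes (%) by fitted log2 level per kb relative to the median tested gene, for the 60 tested vesicle fusion genes, 40 other presynaptic genes and all 7924 tested genes, with the median as a black line. The medians were 1.62 for the vesicle fusion genes, 1.40 for the other presynaptic genes and 0.23 for all tested genes.

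Snap25, a plasma membrane SNARE of neurons, had the highest mean of the 79 genes and ranked 7 among all genes per kb. Its level was 783, 1601 and 786 CPM per kb in replicates 1, 2 and 3, so that replicate 2 stood above the other two, and in replicate 1 Syn1 was higher. The fitted log2 level was 7.44 ± 0.53 (SD, n = 3; edgeR adjusted p = 3.0e-23). The gene lies at chr2:136713453-136782428 on the plus strand (GRCm38, GENCODE vM21). Its relatives in the family were all far lower. The highest of them was Snap47, a SNARE found on intracellular membranes as well, which had 34.2, 49.3 and 71.8 CPM per kb and was also called above (log2 level 3.09, edgeR adjusted p = 5.6e-05); 11.6% of Snap47 exon overlaps Jmjd4 on the opposite strand. Snap23, the widely expressed relative that serves secretion outside neurons, had 0.659, 2.60 and 2.83 CPM per kb and was not called. Snap25 made up 94.0 ± 3.62% (SD, n = 3) of the family's summed CPM per kb.

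Vamp2, or synaptobrevin 2, is the vesicle SNARE of most forebrain synapses. It had 596, 483 and 199 CPM per kb in replicates 1, 2 and 3, lowest in replicate 3, and a log2 level of 6.17 ± 0.89 (SD, n = 3; edgeR adjusted p = 3.2e-19). It lies at chr11:69088490-69092384 on the plus strand. Vamp1, the form that prevails in spinal cord and brainstem, had 2.02, 4.10 and 2.78 CPM per kb, and Vamp4, a SNARE of the trans-Golgi network and of some vesicles, had 21.8, 21.5 and 16.5. Neither Vamp1 nor Vamp4 was called. Vamp3, the ubiquitous cellubrevin, spanned 0.979, 18.8 and 8.08 CPM per kb, with replicate 1 far below the other libraries. Vamp5 and Vamp8 had at most 18 counts in any library. Vamp2 made up 91.7 ± 4.16% of the summed level of the family.

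Of the 4 tested plasma membrane syntaxins, 0 were called above the median gene by edgeR, against 13.7% of all tested genes. At an unadjusted p under 0.05 there were 0 too, and 0 by limma. With 4 genes this count is not far from the share of all tested genes, so it is a description only. Snap25 and Vamp2 were called above. Stx1a, a neuronal syntaxin of the fusion complex, had 0.354, 4.29 and 0.834 CPM per kb, from 4, 262 and 26 counts, and did not pass the filter. Stx3, a syntaxin of apical membranes and of ribbon and dendritic release sites, had 9.49, 9.88 and 13.3 CPM per kb (log2 level 0.86, edgeR adjusted p = 0.92). Its share of the summed level of this group was 36.0 ± 6.59% (SD, n = 3). With all genes that had counts kept in the fit, so that the median gene lay lower, Stx3 was called above (log2 level 2.98, edgeR adjusted p = 0.0039). Stx4a had 0.898, 6.89 and 7.56 CPM per kb, with replicate 1 below the other libraries; part of its exon overlaps a gene on the opposite strand, and the strand setting of the counting is not known. The level per kb of Snap25 was far above that of Stx1a and of Stx3 in every library.

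Of the syntaxins of internal membranes, Stx12, an endosomal SNARE also known as syntaxin 13, was the 1 of 6 tested that was called above. This is 16.7%, near the 13.7% of all tested genes. It had 39.9, 48.7 and 38.5 CPM per kb and a log2 level of 2.82 ± 0.15 (SD, n = 3; edgeR adjusted p = 5.4e-04). The endosomal Stx7 and the trans-Golgi Stx16 followed, at means of 18.0 ± 4.23 and 19.8 ± 9.21 CPM per kb (SD, n = 3), and were not called. Stx5a, a SNARE between endoplasmic reticulum and Golgi, had 9.30, 1.59 and 0.398 CPM per kb, highest in replicate 1. Stx6 ran the other way, at 0.377, 2.59 and 3.88 CPM per kb, lowest in replicate 1.

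Stxbp2, a Munc18 protein used by immune cells and epithelia, had 12.4, 2.69 and 2.94 CPM per kb, highest in replicate 1, and was not called. Both tomosyn genes, which encode inhibitors that occupy SNAREs in place of VAMP, were called above. Stxbp5l had 65.8, 75.9 and 108 CPM per kb (log2 level 3.78, edgeR adjusted p = 1.1e-08). Stxbp5 had 22.1, 27.2 and 28.8 CPM per kb (log2 level 2.11, edgeR adjusted p = 0.034), a call that was lost without replicate 2 (adjusted p = 0.226) or without replicate 3 (adjusted p = 0.166). Nsf, the ATPase that disassembles used SNARE complexes, had 156, 134 and 139 CPM per kb, a log2 level of 4.58 ± 0.22 (SD, n = 3; edgeR adjusted p = 3.2e-12).

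Cplx2 and Cplx1 encode the main complexins of the brain, and both were called above. Cplx2 had 435, 397 and 202 CPM per kb, lowest in replicate 3, with a log2 level of 5.86 ± 0.65 (SD, n = 3; edgeR adjusted p = 7.0e-18). Cplx1 had 118, 105 and 104 CPM per kb, nearly the same in all libraries, with a log2 level of 4.19 ± 0.20 (edgeR adjusted p = 2.4e-10). Cplx3 and Cplx4, known from the retina, had at most 8 counts in any library, and Cplx4 had 0 in all of them. The share of Cplx2 in the family was 78.5, 79.0 and 66.1%.

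Of the synaptotagmins that bind calcium, 3 of 6 tested were called above, against 13.7% of all tested genes: Syt1, Syt7 and Syt5. Syt1, the fast calcium sensor of forebrain synapses at chr10:108497650-109010982 on the minus strand, had 67.0, 93.9 and 93.5 CPM per kb and a log2 level of 3.81 ± 0.18 (SD, n = 3; edgeR adjusted p = 8.1e-09). Syt7, the slow sensor tied to facilitation and asynchronous release, spanned 76.4, 23.0 and 12.1 CPM per kb, highest in replicate 1, with a log2 level of 2.69 ± 1.43 (edgeR adjusted p = 0.0016; 0.060 by limma). In replicate 1 Syt7 exceeded Syt1, and in the other libraries Syt1 exceeded Syt7. Syt5 had 57.7, 18.3 and 11.97 CPM per kb, again highest in replicate 1, and its call (log2 level 2.34, edgeR adjusted p = 0.0442) was lost without replicate 1 (0.299) or without replicate 2 (0.120). Syt2, the fast sensor of hindbrain synapses, had 0, 16 and 74 counts, and Syt9 had 0, 93 and 0 counts, so neither could be tested.

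The remaining synaptotagmins lack some or all of the calcium-binding residues or are little studied as sensors. Syt11 and Syt4, close relatives without calcium binding in a C2 domain, had 44.0, 36.0 and 58.9 and 44.0, 29.5 and 42.7 CPM per kb in replicates 1, 2 and 3. Both were called above, at log2 levels of 2.95 and 2.70 (edgeR adjusted p = 8.5e-05 and 0.0012), and 14.5% of Syt4 exon overlaps a gene on the opposite strand. Syt17 had 51.3, 9.50 and 17.9 CPM per kb, and its call (log2 level 2.18, edgeR adjusted p = 0.0497) sat at the threshold and was lost without replicate 1 (0.268) or without replicate 2 (0.0607). Syt12 was at the low end, at 0.255, 0.678 and 4.65 CPM per kb (log2 level -1.72, edgeR adjusted p = 0.53), and was called below when replicate 3 was left out (log2 level -3.53, adjusted p = 0.016).

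The active zone genes spanned a wide range of levels. Pclo and Bsn, which encode the giant scaffold proteins Piccolo and Bassoon, were both called above. Pclo, at chr5:14514918-14863459 on the plus strand, had 248, 61.4 and 171 CPM per kb and a log2 level of 4.77 ± 1.13 (SD, n = 3; edgeR adjusted p = 1.3e-11). Bsn, at chr9:108096022-108190384 on the minus strand, had 159, 37.0 and 99.0 CPM per kb and a log2 level of 4.08 ± 1.16 (edgeR adjusted p = 3.7e-09). Both were highest in replicate 1 and lowest in replicate 2, and their ratio hardly moved: Pclo held 60.9, 62.4 and 63.3% of their summed level. Erc2, the synapse-specific ELKS protein, had 63.3, 46.3 and 46.9 CPM per kb (log2 level 3.13, edgeR adjusted p = 9.3e-06), while the broadly expressed Erc1 had 5.78, 11.7 and 15.9 and was not called. Of the liprins, Ppfia2 was called above, at 53.1, 57.7 and 37.3 CPM per kb (log2 level 3.04, edgeR adjusted p = 2.2e-05), and 22.3% of its exon overlaps Acss3 on the opposite strand. Ppfia3, a liprin-alpha of synapses whose promoter is shown above, had 0.567, 2.35 and 6.53 CPM per kb.

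Of the 2 tested RIM and 3 tested Munc13 genes, 0 were called by edgeR per kb of exon (1 above at an unadjusted p under 0.05, Rims1, and 0 by limma). Of all tested genes, 13.7% were above and 2.99% below, so with so few genes this count is a description only. Rims1, which tethers calcium channels and vesicles at the active zone, had 38.3, 12.9 and 11.2 CPM per kb (log2 level 1.84 ± 1.07, SD, n = 3; edgeR adjusted p = 0.18), and Rims2 had 3.40, 11.2 and 15.6, so that Rims1 led in replicates 1 and 2 and Rims2 in replicate 3. Rims3 had 0, 0 and 7 counts. Unc13a, or Munc13-1, the main priming factor of glutamatergic synapses, had 8.12, 7.29 and 36.5 CPM per kb, and only replicate 3 was high (log2 level 1.51 ± 1.28, SD, n = 3; edgeR adjusted p = 0.44). It was called above when replicate 1 was left out (log2 level 2.32, adjusted p = 8.2e-04). Unc13b had 1.18, 3.31 and 5.26 CPM per kb, and the cerebellar form Unc13c had 0.482, 2.20 and 1.46. Without correction for length, Rims1 (log2 level 2.38, edgeR adjusted p = 0.0136) and Unc13a (2.82, 7.4e-04) were called above, so for these long transcripts the call turns on the scale.

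Among the vesicle proteins, Syn1, which encodes synapsin I, a protein that clusters vesicles in reserve, ranked 10 among all genes per kb. It had 1081, 520 and 482 CPM per kb, highest in replicate 1, and a log2 level of 6.89 ± 0.74 (SD, n = 3; edgeR adjusted p = 3.2e-22). Syn2 had 77.4, 33.6 and 51.8 CPM per kb and was called above (log2 level 3.20, edgeR adjusted p = 6.6e-06), and Syn3, of which 14.1% of exon overlaps Timp3 on the opposite strand, had 14.7, 17.5 and 14.0 and was not. Of the SV2 glycoproteins, which act in vesicle priming, Sv2b was called above, at 41.2, 62.0 and 177 CPM per kb (log2 level 3.93 ± 1.03, SD, n = 3; edgeR adjusted p = 6.0e-09). Sv2a, the broadly expressed form bound by levetiracetam, had 18.5, 13.1 and 24.5 CPM per kb and was not called, except when replicate 1 was left out (log2 level 2.08, edgeR adjusted p = 0.0215). Sv2c had 32.7, 4.53 and 2.70 CPM per kb, so that Sv2b and Sv2c stood close in replicate 1 and far apart in replicate 3. Syp, the abundant vesicle protein synaptophysin, had 135, 64.0 and 35.1 CPM per kb (log2 level 3.74, edgeR adjusted p = 4.4e-08), with 16.8% of its exon under an antisense gene. Snap91, the clathrin adaptor taken in by its symbol, had 25.0, 38.7 and 48.7 CPM per kb and was called above (log2 level 2.62, edgeR adjusted p = 0.0011).

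Within most families the same gene led in every library: of 16 families, 12 had the same leading paralog in all 3. The families with the steadiest leader were Bassoon and Piccolo, with Pclo at 62.2 ± 1.20%, the synapsins, with Syn1 at 90.4 ± 2.16%, and the tomosyns, with Stxbp5l at 75.8 ± 2.78% (SD, n = 3). The SV2 genes were less steady, with Sv2b at 44.6, 77.9 and 86.7% in replicates 1, 2 and 3. The leader changed among the calcium-binding synaptotagmins, where Syt1 held 30.3, 58.8 and 67.9%, and among the RIM genes, where Rims1 held 91.8, 53.4 and 41.8%. It also changed among the plasma membrane syntaxins, and between Syt17 in replicate 1 and Syt11 in replicates 2 and 3 among the other synaptotagmins.

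**Figure D3:**
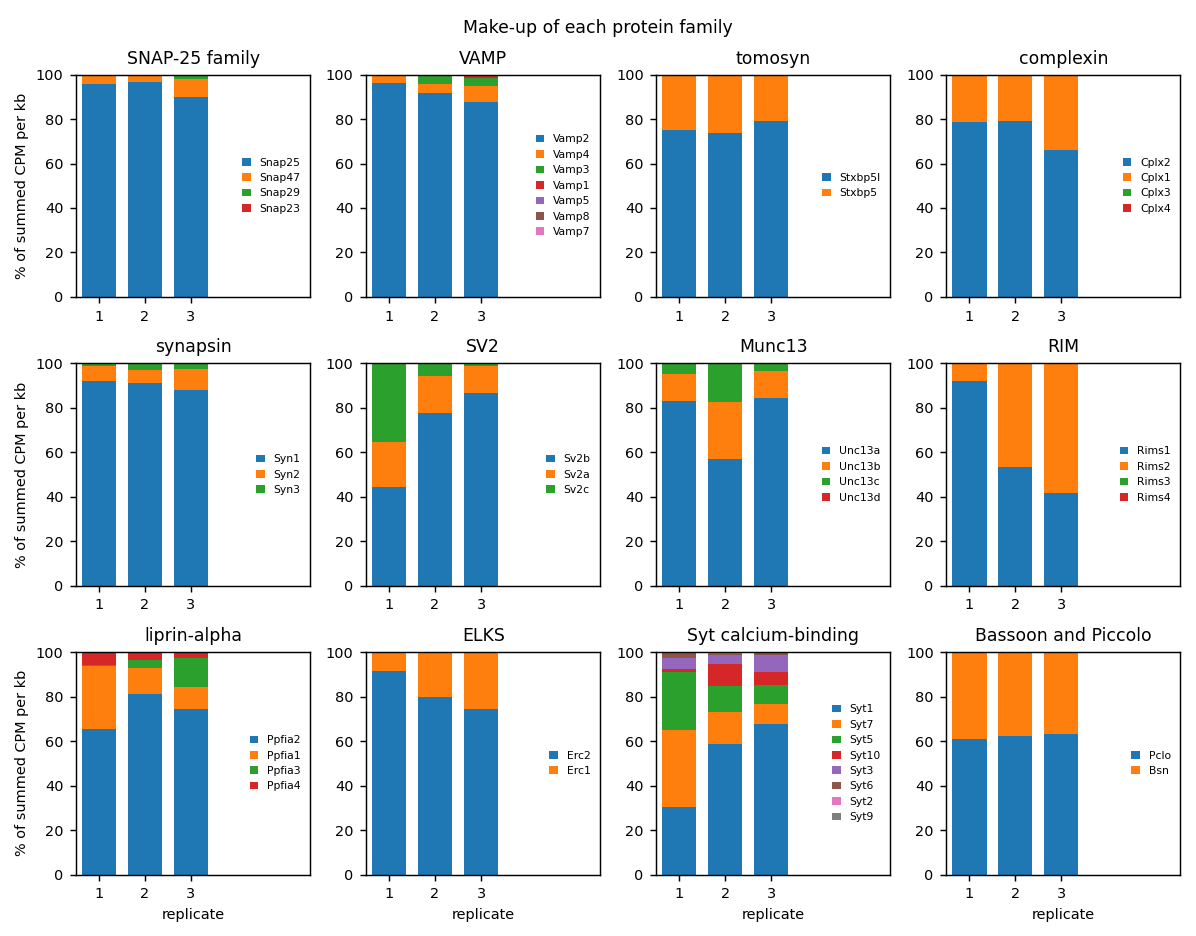
Share (%) of each paralog in the summed CPM per kb of its family in replicates 1, 2 and 3, for 12 of the 16 families, as stacked bars from 0 to 100%. Snap25, Vamp2 and Syn1 fill most of their bars in every library, while the share of Rims1 is 91.8% in replicate 1 and 41.8% in replicate 3.

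Differences between paralogs were also taken library by library for 22 pairs, as log2 CPM per kb of the first gene minus the second. The sign was the same in all 3 libraries for 19 pairs, and in 16 of them the first gene was higher. With 3 libraries the exact two-sided sign-flip test cannot give a p under 0.25, so no pair could pass 0.05. Snap25 minus Snap23 was 9.16 ± 1.02 and Vamp2 minus Vamp1 was 7.08 ± 1.03, both higher in 3 of 3 libraries (SD, n = 3). Syn1 minus Syn2 was 3.66 ± 0.39 and Bsn minus Pclo was -0.72 ± 0.074, the smallest spread of the 22. Sv2a minus Sv2b was -2.08 ± 0.86 and Ppfia3 minus Ppfia2 was -4.54 ± 1.997, each negative in 3 of 3 libraries. Against genes with 0 counts in some library, set to the floor of 3 counts per library, Syt1 was on average at least 438-fold higher than Syt2 and Rims1 at least 370-fold higher than Rims3. The signs differed between libraries for Syt1 minus Syt7, Syt11 minus Syt4 and Rims1 minus Rims2. For Syt11 minus Syt4 the replicate 1 value was only -2.1e-04, and it was 1.2e-04 with the floor in place of the prior count. Pairs with the same sign in all 3 libraries numbered 20 with a prior count of 0.5, 20 without length correction and 21 with the longest transcript.

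**Figure D4:**
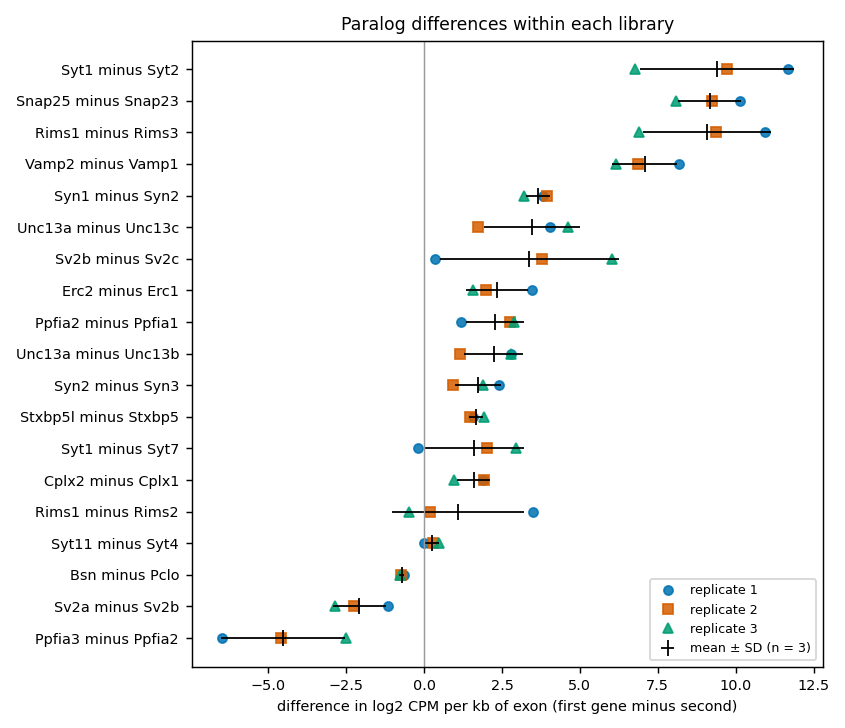
Difference in log2 CPM per kb (first gene minus second) for 19 of the 22 paralog pairs, with each replicate as a point and the mean ± SD (n = 3) as a line. Points for the pairs with Syt2 and Rims3 include libraries with 0 counts and there depend on the prior count of 2; Bsn minus Pclo has the narrowest spread, at -0.72 ± 0.074.

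Counts differed between the libraries beyond Poisson noise for 60 of 60 tested genes, against 97.4% of all tested genes (chi-square, Benjamini-Hochberg adjusted p under 0.05). Over pairs of libraries this held for 56 of 65 genes without replicate 1, 50 of 59 without replicate 2 and 57 of 60 without replicate 3. The shares of all tested genes were 84.7, 85.8 and 85.8%. Separate libraries nearly always differ by more than counting noise, so nothing about these genes is read from these counts. A range of at least 1 in log2 CPM was found for 40 of 60, or 66.7%, against 79.6% of all tested genes, and the median range was 1.55 against 1.84. Over 2 libraries, where a range can only be narrower, it was found for 18 of 65 genes without replicate 1, 32 of 59 without replicate 2 and 31 of 60 without replicate 3, against 45.2, 59.2 and 60.3% of all tested genes; the genes that pass the filter differ between these settings. Of the genes with a mean of at least 10 CPM, the widest ranges in log2 CPM were those of Stx5a (4.46), Vamp3 (4.19), Syt12 (4.05), Snap29 (3.94) and Sv2c (3.59), of which 4 average under 30 CPM. Snap29, a SNARE of many trafficking steps, had 0.889, 6.52 and 14.3 CPM per kb, lowest in replicate 1. The narrowest ranges were those of Cplx1 (0.19), Nsf (0.22), Syn3 (0.32), Stx12 (0.34) and Stxbp5 (0.38). The highest CPM of a tested gene was in replicate 1 for 27 genes, in replicate 2 for 13 and in replicate 3 for 20, which is 45.0, 21.7 and 33.3%, against 37.6, 30.5 and 31.9% of all tested genes. Replicate 1 was also the shallowest library, with 16.3% of its listed reads on genes against 38.2 and 21.1% in replicates 2 and 3, and the summed excitatory neuron markers were highest in it, at 15438 CPM against 6751 and 9546 CPM; the part of either in these ranges was not tested.

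**Figure D5:**
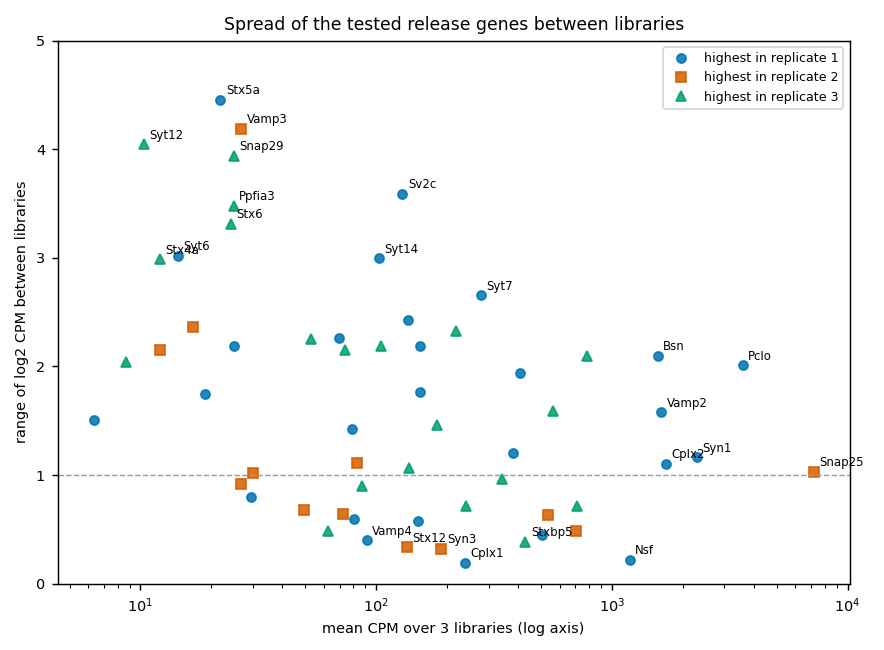
Range of log2 CPM between the 3 libraries against mean CPM (log axis) for the 60 tested vesicle fusion genes, with symbols for the replicate in which the gene was highest; the dashed line marks a range of 1. Stx5a has the widest range, at 4.46, while Nsf and Cplx1 lie near 0.2.

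The rest of the presynaptic pathway was read from a list of 47 other release genes, of which 40 could be tested. Of these, 13 were called above, or 32.5%, against 13.7% of all tested genes, and 0 were below, against 2.99% (edgeR; 0 at an unadjusted p under 0.05, and 0 by limma), with a median log2 level of 1.40. The highest was Rph3a, which encodes rabphilin, an effector of Rab3 on vesicles, at 235, 139 and 119 CPM per kb (log2 level 4.80, edgeR adjusted p = 2.3e-13). Prrt2, a SNARE-binding protein mutated in paroxysmal dyskinesia, had 259, 74.3 and 36.3 CPM per kb, and Rab3c, a vesicle GTPase, had 138, 35.0 and 60.7. All of these were highest in replicate 1. The lowest with counts was Sytl4, or granuphilin, at 0, 0.153 and 0.0334 CPM per kb.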

How the data were processed

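Ribosome-bound RNA of 3 dentate gyrus TRAP libraries was deposited as whole-number read counts per gene symbol, 1 file per library, and the counter's summary rows were not used as genes. Reads on genes were 16.3, 38.2 and 21.1% of those listed in replicates 1, 2 and 3. The tools STAR 2.0.0e and HTSeq and the genome build mm10 are named, without roles, per the submitters' processing notes; the annotation, strand setting and filters behind the authors' counts are not given in the sources used here. Reads of near-identical genes and of genes that overlap on opposite strands may therefore be lost or shared.

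The genes, lists and pairs were chosen with earlier results of these data known, so their counts are descriptions. Exon lengths and places came from GENCODE vM21 (GRCm38), which matched 93.1% of the genes kept. The filter filterByExpr kept 8510 of 32531 genes, and 7924 of them had a length. Levels were tested with edgeR 4.0.16 in R 4.3.3: an intercept-only quasi-likelihood fit of the counts, with exon length in kb and the library's median count per kb as offset. The TREAT test at a log2 threshold of 1 was computed from the deviances of that fit, because the packaged function refuses a design with 1 column. CPM used TMM scaling (factors 0.793, 1.19 and 1.06), and log2 CPM a prior count of 2. Variation between libraries was tested by Poisson chi-square. On simulated counts (7529 genes tested) edgeR called 100% of those placed 16-fold above the median and 84% of those placed 8-fold above it.

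Named with full values were the highest gene per kb of each family, the genes of named pairs and the 5 widest ranges; of the other release genes, the 3 highest and the 1 lowest. Syt17, Syt5, Snap47 and Snap91 were added as calls to be checked, and Vamp4, Stx7, Stx16, Stx6, Stx4a, Syt9 and the other low genes after their values were seen. Some genes that this rule names are counted among the 79 but not reported singly here. Alternatives were limma 3.58.1, DESeq2 1.42.0 size factors, no filter, other count minimums, a prior count of 0.5, the longest transcript, no length, no log2 threshold, the median of protein-coding genes, thinning to the depth of replicate 1, and each replicate left out. Figures were drawn with matplotlib 3.10.9.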

Additional observations from a re-analysis of the deposited data

How the results depend on the processing

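The number of vesicle fusion genes above the median gene was 22 to 27 with 1 replicate left out (10.7 to 16.7% of all tested genes), 22 by limma (10.7%), 26 with the longest transcript (13.7%), 29 without length correction (17.0%), 33 with no log2 threshold (28.2%), 24 against the median of protein-coding genes (13.6%) and 22 after thinning (13.0%). Without the filter it was 43 of 72, against 25.6% of all genes, since low genes then lower the median. Other release genes above numbered 30 without the filter, 22 with no log2 threshold and 10 to 19 with 1 replicate left out, beside the same shares of all tested genes. Genes below numbered 1 of 60 with no log2 threshold, against 8.13% of all tested genes. They numbered 0 to 1 of 59 to 65 with 1 replicate left out, against 3.07 to 4.68% of all tested genes. The 1 without replicate 3 was Syt12. A log2 range of at least 1 was found for 18 to 32 genes with 1 replicate left out, the lowest without replicate 1.

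Beside the losses given above with a replicate left out, limma lost Syt5, Syt17 and Syt7, thinning lost Syt5, Syt17 and Stxbp5, the fit without length correction lost Syt5, and the median of protein-coding genes lost Syt17. Some log2 levels changed sign, all of genes not called in the reported fit, and the cause was not tested. By limma these were Stxbp2 (-0.38), Vamp3 (-0.16) and Snap29 (-0.45), and with the longest transcript Snap29 (-0.23). Without the filter they were Ppfia3 (0.82), Vamp1 (0.98), Snap23 (0.24), Unc13b (0.96), Stx5a (2.09) and Syt12 (0.070). Without length correction they were Unc13b (1.25), Stxbp2 (-0.22), Vamp3 (-0.23) and Snap29 (-0.33), and after thinning Stxbp2 (-0.19). With 1 replicate left out they were Ppfia3 (-1.93 to 0.0070), Sv2c (-0.31 to 1.84), Stxbp2 (-0.66 to 0.53), Vamp3 (-0.49 to 1.58), Stx5a (-2.18 to 0.059) and Snap29 (-0.60 to 1.23). Among genes named in full, calls above were gained by Syn3 with the longest transcript (2.27), by Syn3 (2.63), Erc1 (2.55), Ppfia1 (2.39), Rims1 and Unc13a without length correction, by Unc13a and Sv2a without replicate 1, and by more genes without the filter or the log2 threshold. Family shares were not run after thinning. Of 22 paralog differences, 7 were counted as moved without length correction and 3 with the longest transcript, and 0 changed sign in either setting. For the leading shares of the 16 families these counts were 6 and 4. Vamp2 minus Vamp1 was 5.66 without length correction. Syn1 minus Syn2 was 2.57 without it and 2.81 with the longest transcript. With the longest transcript, Bsn minus Pclo was -0.88 and Rims1 minus Rims2 was 0.15. Rims1 minus Rims2 ran from -0.14 to 1.84 with 1 replicate left out, and so changed sign.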
